A study of Mus musculus with 8 samples.

Results

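The genes described here repair breaks across both strands of DNA and crosslinks between them. They were 37 mouse genes, chosen by name: factors of end resection, the BRCA complexes and strand exchange, the Fanconi pathway and its nucleases, end joining, the checkpoint kinases, and the mismatch factor Msh6. All 37 symbols matched 1 row each of the 27179 genes in the count table, and all 37 passed the filter on low counts, with between 91 and 20425 counts per library.

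The libraries held polyadenylated RNA from mouse MLL-AF9 acute myeloid leukaemia cells, which carry the MLL-AF9 oncogenic fusion and are labelled WT in genotype. The cells carried GFP (driven, in the protocol's wording, by the ubiquitin transporter) and luciferase under the β-actin promoter. They came from 1 terminally ill mouse, were expanded in culture and injected intravenously into unconditioned males aged 8 to 10 weeks, and were sorted from bone marrow as GFP-positive, 7AAD-negative cells. In the BCAA 5+3 group (n = 3) the mice ate a diet free of the branched-chain amino acids leucine, isoleucine and valine, and in the AA 5+3 group (n = 5) a standard amino acid diet. Sample labels read BCAA alone, and that this means BCAA-free comes from the design text. Both groups received 5+3 chemotherapy, cytarabine at 100 mg/kg daily for 5 days and doxorubicin at 3 mg/kg daily for the first 3 days, and no untreated cells were analysed here, so what chemotherapy itself did to these genes cannot be read from the comparison. The mice were killed at the point of maximum response. The labels call the libraries biological replicates, without saying whether each came from 1 mouse.

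Breaks across both strands are mended either by homologous recombination, which copies the sister chromatid and works in S and G2 phase, or by end joining, which rejoins the ends in any phase. Crosslinks between strands are unhooked by the Fanconi pathway and handed to recombination. Doxorubicin poisons topoisomerase II and leaves such breaks, and cytarabine stalls replication forks, which engages the ATR and CHEK1 kinases. Many recombination genes are expressed in proliferating cells and are regulated by E2F factors and the DREAM complex.

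Library totals were between 14851240 and 30306697 counts on the BCAA-free diet and between 16588662 and 38966911 on the standard diet. The 10 genes set to check the leukaemic label (Ptprc, Hoxa9, Hoxa10, Meis1, Mef2c, Myb, Kit, Itgam, Flt3 and Cd48) were detected in both groups, among them Hoxa9 at 165 ± 24.6 CPM (read counts normalised to a common library size) without BCAA and 175 ± 15.3 CPM on the standard diet (SD, n = 3 and 5). None of the 10 was called in edgeR. Flt3, a receptor of early progenitors, was at 14.99 ± 4.54 CPM without BCAA and 6.97 ± 2.95 CPM on the standard diet (log2 fold change 1.11, SE 0.30, adjusted p = 0.103 in edgeR and 0.0215 in DESeq2). Mef2c had a log2 fold change of 1.08 (SE 0.63, edgeR adjusted p = 0.499) and the myeloid integrin Itgam -0.36 (SE 0.13, edgeR adjusted p = 0.229). Of the 10, 7 were negative and 3 positive, against 47.4% negative among all tested genes (median log2 fold change -0.14). Together the 10 summed to 2308 to 2513 CPM without BCAA and 2569 to 3149 CPM on the standard diet, without overlap. The B cell markers (5 of 5 matched) summed to 25.4 to 99.0 CPM in the BCAA-free libraries and 8.14 to 15.3 CPM in the standard-diet libraries. The T cell markers (7 of 7) summed to 6.11 to 38.0 CPM and 3.86 to 10.4 CPM in the same order of groups, with the top of both BCAA-free ranges in replicate 2. Of the B cell markers, 4 were tested and all were positive (median log2 fold change 3.18). Called higher were 3 in edgeR, 4 in DESeq2 and 1 in limma-voom, beside backgrounds of 0.217%, 0.913% and 0.112%. All 7 T cell markers were positive too, against 52.6% of all tested genes (median log2 fold change 1.68). No T cell marker was called in edgeR, and DESeq2 called 1 higher. The erythroid markers (6 of 7 matched) summed to 4.60 to 42.9 CPM and 3.65 to 12.1 CPM, the neutrophil markers to 1552 to 6194 CPM and 772 to 6341 CPM, the macrophage markers to 220 to 299 CPM and 297 to 400 CPM, and the stromal and endothelial markers to 40.7 to 62.5 CPM and 25.3 to 45.8 CPM, each without BCAA first. Most macrophage markers went against their sum: of 7, 5 were positive and 2 negative (median log2 fold change 1.06). At an unadjusted p under 0.05, 5 were higher and 2 lower, against 6.21% and 7.26% of all genes. Positive were 5 of 5 tested erythroid markers, 7 of 7 neutrophil markers and 3 of 4 stromal and endothelial markers, against 52.6% of all genes. Their median log2 fold changes were 1.46, 0.41 and 0.43. Of these lists, edgeR called 1 of the 4 tested stromal and endothelial markers higher, beside 0.217%, and none of the others. DESeq2 called 1 higher in each of the erythroid, macrophage and stromal lists, beside 0.913%. No listed marker was at 0 in every library. The part of these cells in the results was not tested. In sorted bulk cells, a lower level can be fewer cells that express a gene or less RNA per cell, and these cannot be told apart.

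The comparison asked how the repair genes of cells from mice without dietary BCAA differed from those of cells from mice on the standard diet. Most of the genes were slightly lower without BCAA, and a single one passed the test. The 37 genes were chosen with earlier results of these data known, so the shares below describe the set and do not test it. Of the 37 genes, 34 (91.9%) had a negative log2 fold change, against 47.4% of the 13364 genes tested, and their median was -0.15 against 0.02 for all tested genes. The called gene was Bard1, which fell, so that 1 of 37 was called lower (2.70%) beside a background of 0.539%, and none was called higher beside 0.217%. Genes were called at an adjusted p under 0.05 in edgeR's quasi-likelihood test, with Benjamini-Hochberg adjustment over all tested genes, which called 0.756% of them in either direction. Without that adjustment 11 of 37 (29.7%) were lower at p under 0.05, against 7.26% of all genes, and none was higher, against 6.21%. DESeq2 called 2 of the genes lower, Bard1 and Blm, beside a background of 1.9%, and none higher beside 0.913% (2.81% in either direction). With limma-voom none was called lower beside 0.367% or higher beside 0.112% (0.479% in either direction). The call of Bard1 was lost in 7 of the 8 fits on 7 libraries, with edgeR adjusted p up to 0.146, and held when BCAA-free replicate 3 was dropped (adjusted p = 0.0394).

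**Figure D1:**
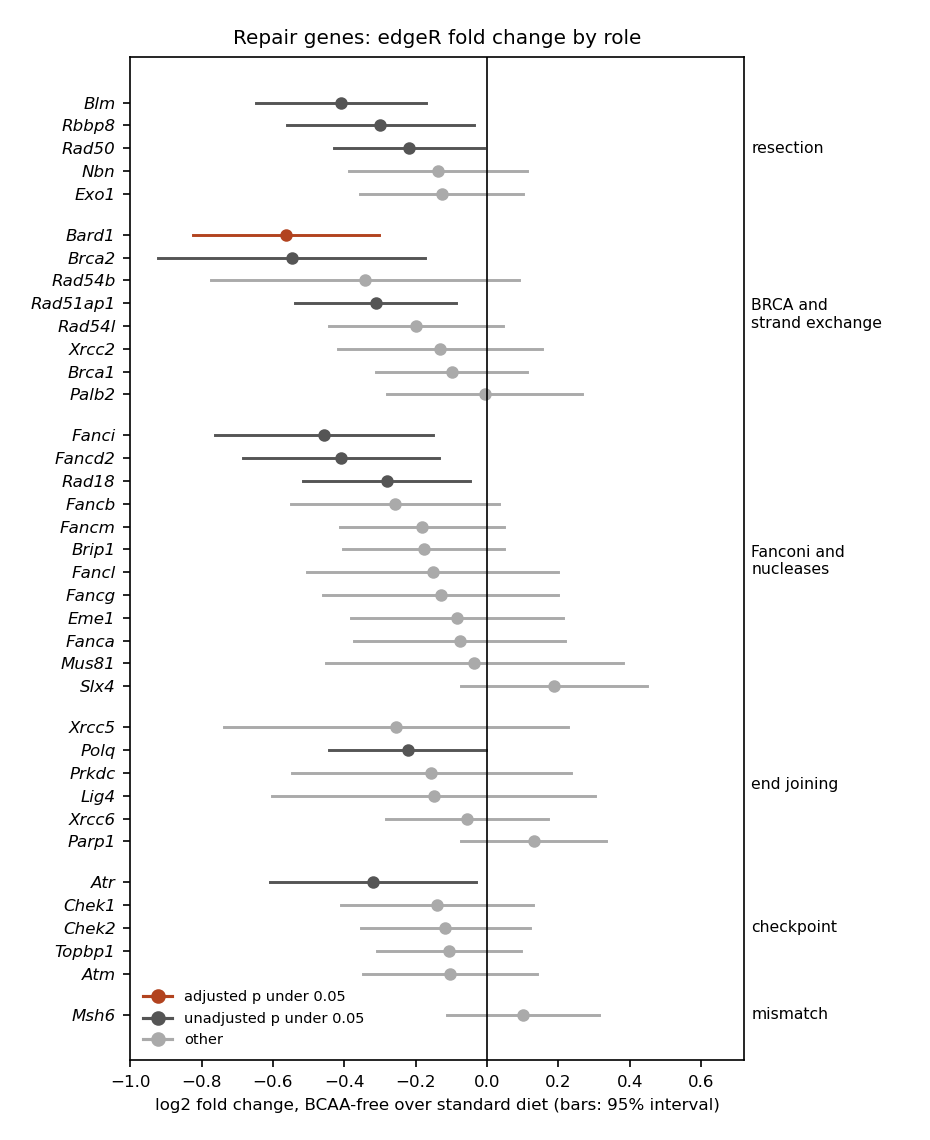
Log2 fold change of each of the 37 repair genes, BCAA-free over standard diet (x axis), with the 95% interval of edgeR's fit, grouped by role. Bard1 at -0.56 is the one gene with an adjusted p under 0.05, and 34 of the 37 points lie left of 0.

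In 9 of the genes (24.3%) all 3 BCAA-free libraries were below all 5 standard-diet libraries, against 4.68% of all tested genes, and the opposite separation occurred in none, against 4.17%. These were Bard1, Rad51ap1, Blm, Rad50, Fanci, Fancd2, Rad18, Brip1 and Polq. Summed over the 37 genes the level was 3307 to 3501 CPM without BCAA and 3634 to 4087 CPM on the standard diet.

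**Figure D2:**
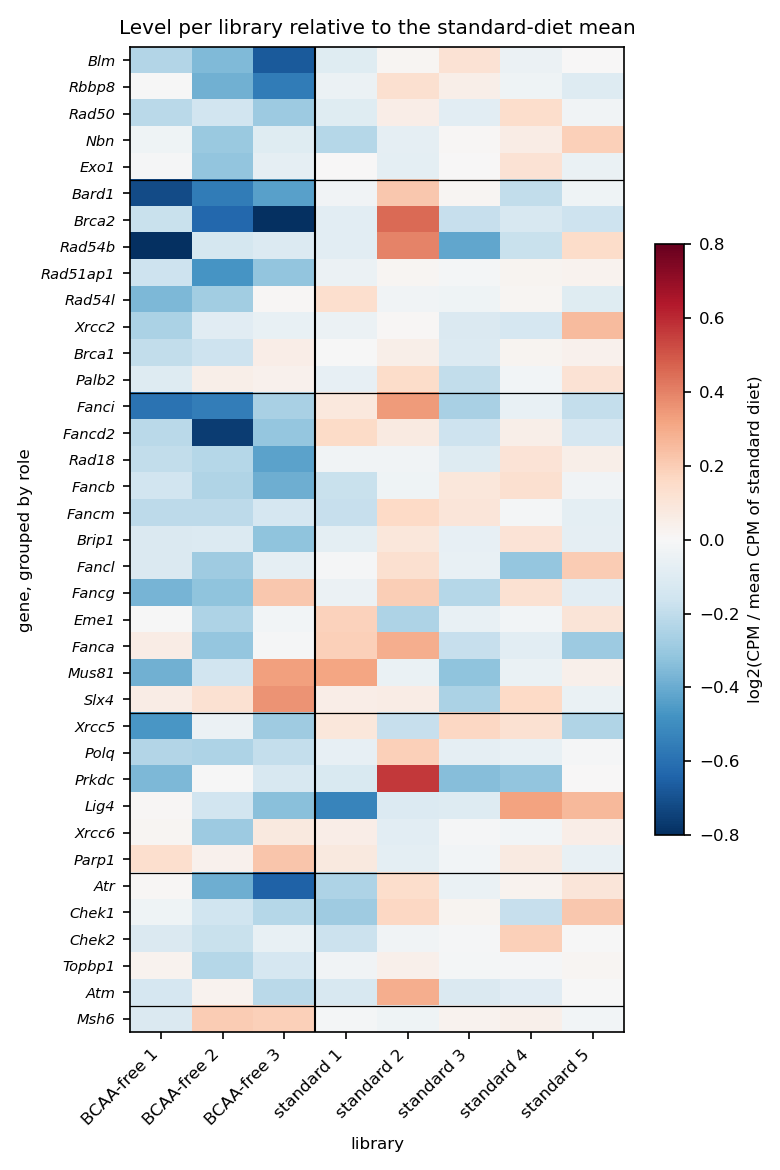
Level of each gene (rows, grouped by role) in each library (columns), as log2 of its CPM over the mean CPM of the standard diet. Blue cells fill most of the 3 BCAA-free columns, and standard-diet replicate 2 holds the highest value of 13 of the 37 genes.

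The upstream sequences of Bard1, Blm, Fanci and Brca2 are given because these genes had the smallest unadjusted p among those with a promoter in the table used. They are the 250 bases before the start used for each gene, from GRCm38.p6, 5′ to 3′ on the gene's own strand. In each case that start lies inside the RefSeq span of the gene. The annotated span of Bard1, Blm and Fanci covers part of the window, and that of Brca2 covers all of it, so the bases shown for Brca2 lie within the annotated gene. Capitals mark the motif letters found on either strand: for E2F factors TTTCCCGC, TTTCGCGC or TTTGGCGC, for the cell cycle homology region (CHR), a DREAM site, TTTGAA, and the box CCAAT.

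Bard1, chr1:71102973-71103222, minus strand: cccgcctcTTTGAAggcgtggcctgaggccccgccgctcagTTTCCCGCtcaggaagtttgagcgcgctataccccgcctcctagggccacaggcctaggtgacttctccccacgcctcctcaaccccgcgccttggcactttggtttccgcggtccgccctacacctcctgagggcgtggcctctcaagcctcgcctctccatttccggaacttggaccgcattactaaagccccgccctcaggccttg
Blm, chr7:80534999-80535248, minus strand: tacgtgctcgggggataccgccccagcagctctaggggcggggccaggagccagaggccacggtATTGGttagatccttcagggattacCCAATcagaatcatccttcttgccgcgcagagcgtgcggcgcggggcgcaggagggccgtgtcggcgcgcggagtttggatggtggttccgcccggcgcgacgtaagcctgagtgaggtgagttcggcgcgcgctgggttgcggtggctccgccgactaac
Fanci, chr7:79392088-79392337, plus strand: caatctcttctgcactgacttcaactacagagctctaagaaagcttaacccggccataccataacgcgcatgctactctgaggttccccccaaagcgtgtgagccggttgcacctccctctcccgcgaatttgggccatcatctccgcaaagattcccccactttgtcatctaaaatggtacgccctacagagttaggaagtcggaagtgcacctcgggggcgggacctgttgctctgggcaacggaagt
Brca2, chr5:150522371-150522620, plus strand: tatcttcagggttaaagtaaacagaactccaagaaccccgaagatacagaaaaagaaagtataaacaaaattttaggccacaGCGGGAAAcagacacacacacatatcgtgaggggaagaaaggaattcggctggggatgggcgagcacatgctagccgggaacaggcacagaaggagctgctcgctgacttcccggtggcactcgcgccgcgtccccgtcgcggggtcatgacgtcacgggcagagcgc

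Bard1 held the letters TTTCCCGC and TTTGAA on its own strand, Brca2 held TTTCCCGC on the other strand, Blm held CCAAT once on each strand, and Fanci held none of them. Of the 37 genes, 29 had a promoter in the table. Over the whole window of 250 bases before to 50 after the start, E2F letters stood in 7 of these 29 (24.1%: Brca2, Bard1, Fancg, Xrcc6, Chek2, Msh6 and Topbp1), against 4.23% of the 10034 tested genes with a promoter and 2.12% of all 27025 genes with one. TTTGAA stood in 3 of 29 (10.3%: Bard1, Polq and Eme1), against 14.8% of the tested genes. CCAAT stood in 15 of 29 (51.7%), against 43.6%. These are matches of letters, and say nothing of binding.

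The resection and sensing genes start recombination by recognising an end and trimming it. All 5 had a negative log2 fold change, against 47.4% of all tested genes, with a median of -0.22, and none was called in edgeR. Blm, a RecQ helicase of resection and of Holliday junction dissolution, was at 113, 104 and 83.2 CPM on the BCAA-free diet, against 124, 134, 144, 129 and 133 CPM on the standard diet. The groups did not overlap, and the log2 fold change was -0.41 (SE 0.11, adjusted p = 0.105 in edgeR and 0.0341 in DESeq2). Rad50, the ATPase of the MRN complex that binds ends, was at 175, 183 and 166 CPM against 190, 211, 192, 224 and 199 CPM in the same order (log2 fold change -0.22, SE 0.10, edgeR adjusted p = 0.348). Its groups did not overlap either, while those of Rbbp8 did. Rbbp8, the resection factor CtIP, was at 112, 85.6 and 75.9 CPM without BCAA and 108, 122, 116, 109 and 104 CPM on the standard diet, where BCAA-free replicate 1 lay within the standard-diet range (log2 fold change -0.30, SE 0.12, edgeR adjusted p = 0.307). Nbn, the MRN subunit that recruits ATM, and Exo1, the long-range exonuclease, had log2 fold changes of -0.14 and -0.13 with overlapping groups.

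The BRCA1-BARD1 and BRCA2-PALB2 complexes act in homologous recombination after resection. All 8 genes of this group were negative, against 47.4% of all tested genes, from -0.56 to -0.01, with a median of -0.26. Of them 1 (12.5%) was called lower, beside a background of 0.539%. Bard1, the obligate RING partner of BRCA1, was at 42.7, 47.5 and 51.8 CPM on the BCAA-free diet, against 68.6, 81.2, 70.6, 60.9 and 68.3 CPM on the standard diet. The highest BCAA-free library was thus below the lowest standard-diet library, and the means were 47.3 ± 4.59 CPM and 69.9 ± 7.32 CPM (SD, n = 3 and 5; log2 fold change -0.56, SE 0.12, 95% interval -0.82 to -0.30, edgeR adjusted p = 0.0467). Bard1 (gene 12021) spans chromosome 1 from 71027535 to 71103141 in GRCm38. Brca1 itself was at 112, 114 and 133 CPM without BCAA and 128, 132, 119, 130 and 131 CPM on the standard diet, with overlapping groups (log2 fold change -0.10, 95% interval -0.31 to 0.11, edgeR adjusted p = 0.714). The log2 ratio of Bard1 to Brca1 was -1.34 ± 0.07 without BCAA and -0.88 ± 0.16 on the standard diet (SD), with no overlap. Its exact two-sided permutation p was 0.0357, the smallest that 3 libraries against 5 allow, and 0.214 after adjustment over 6 pairs of binding partners, which were chosen with the values known.

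**Figure D3:**
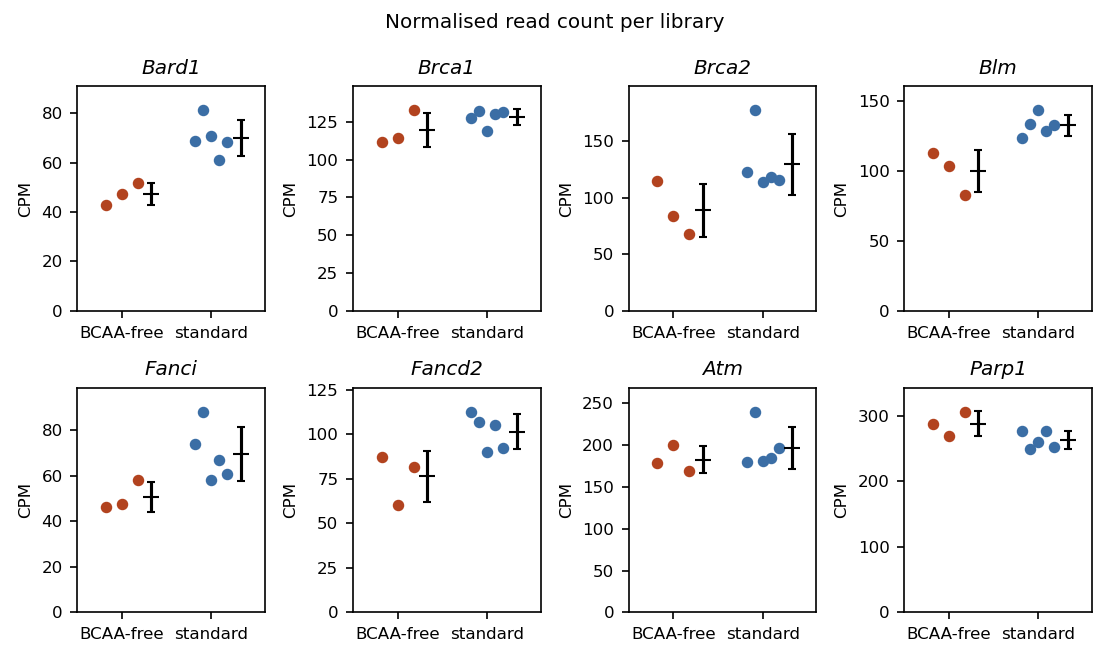
Normalised read count (CPM, y axis from 0) of 8 repair genes in each library, BCAA-free at the left and standard diet at the right of each panel, with the mean and SD beside the points. Bard1, Blm, Fanci and Fancd2 do not overlap between the groups, and the single high standard-diet point of Brca2 and of Atm is replicate 2.

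Brca2, a mediator of recombination at resected ends, was at 114.5, 84.1 and 68.3 CPM without BCAA, against 122.5, 177.6, 114.2, 118.8 and 115.7 CPM on the standard diet. BCAA-free replicate 1 reached the lowest standard-diet library, and the log2 fold change was -0.55 (SE 0.18, edgeR adjusted p = 0.187). Its partner Palb2, which bridges BRCA1 and BRCA2, was at 36.0, 40.0 and 39.6 CPM on the BCAA-free diet and 36.98, 42.89, 33.82, 38.09 and 41.97 CPM on the standard diet. The groups overlapped throughout (log2 fold change -0.01, 95% interval -0.28 to 0.27, edgeR adjusted p = 0.990). The log2 ratio of Brca2 to Palb2 was 1.18 ± 0.45 without BCAA and 1.73 ± 0.21 on the standard diet (SD; exact permutation p = 0.107). Rad51ap1, which promotes strand exchange, was at 71.1, 57.6 and 64.1 CPM without BCAA and 77.3, 80.5, 78.9, 80.8 and 81.3 CPM on the standard diet, without overlap (log2 fold change -0.31, SE 0.11, edgeR adjusted p = 0.210). The translocases Rad54b and Rad54l and the strand exchange factor Xrcc2 had log2 fold changes of -0.34, -0.20 and -0.13, all with overlapping groups. Exons of Rad54b share 39.1% of their length with Fsbp on the same strand, so its count is uncertain.

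In the Fanconi pathway a core complex ubiquitinates the FANCI-FANCD2 clamp at a stalled fork, and nucleases then cut out the crosslink. Of the 12 genes here, 11 (91.7%) were negative, against 47.4% of all tested genes (median -0.17), and none was called. In 4 (33.3%) the BCAA-free libraries were all below the standard-diet ones, against 4.68% of all tested genes. Fanci was at 46.1, 47.5 and 58.0 CPM without BCAA, against 73.7, 88.1, 58.1, 66.7 and 60.8 CPM on the standard diet (log2 fold change -0.46, SE 0.14, edgeR adjusted p = 0.168). Its clamp partner Fancd2 was at 87.2, 60.0 and 81.8 CPM, against 113, 107, 90.2, 105 and 92.4 CPM on the standard diet (log2 fold change -0.41, SE 0.13, edgeR adjusted p = 0.169). Neither clamp gene overlapped between groups, though the nearest Fanci libraries were barely apart, at 58.0 CPM without BCAA and 58.1 CPM on the standard diet. The log2 ratio of Fanci to Fancd2 was -0.58 ± 0.30 without BCAA and -0.56 ± 0.16 on the standard diet (SD; difference -0.03, exact permutation p = 0.929). Rad18, a ubiquitin ligase of damage tolerance, was at 62.0, 60.6 and 52.7 CPM without BCAA and 69.5, 69.6, 66.0, 76.5 and 73.4 CPM on the standard diet, without overlap (log2 fold change -0.28, edgeR adjusted p = 0.287). The helicase Brip1 (FANCJ) did not overlap either (log2 fold change -0.18, edgeR adjusted p = 0.494). Core complex genes had log2 fold changes of -0.26 for Fancb, -0.15 for the ligase Fancl, -0.13 for Fancg and -0.08 for Fanca, and the translocase Fancm had -0.18. Among the nuclease genes, the scaffold Slx4 was the one Fanconi member with a positive value (0.19, 95% interval -0.07 to 0.45, edgeR adjusted p = 0.534), and the nuclease partners Mus81 and Eme1 had -0.04 and -0.09. Exons of Fancl and Fanci overlap Vrk2 and Polg on the other strand over 16.96% and 13.4% of their length, so reads of these genes and their partners may not be separable if strand was not used in counting.

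End joining uses the Ku dimer of XRCC5 and XRCC6, the kinase DNA-PKcs (Prkdc) and ligase 4, or, in its alternative form, PARP1 and polymerase theta (Polq). Of these 6 genes, 5 (83.3%) were negative, against 47.4% of all tested genes, with a median of -0.15, and none was called. Polq was at 79.0, 78.2 and 81.4 CPM without BCAA and 88.7, 105.9, 88.2, 89.1 and 92.1 CPM on the standard diet, without overlap but with a small difference (log2 fold change -0.22, SE 0.10, edgeR adjusted p = 0.362). Parp1, which senses breaks, was at 288, 269 and 307 CPM without BCAA and 278, 249, 260, 277 and 252 CPM on the standard diet, so the groups overlapped and the value was positive (log2 fold change 0.13, 95% interval -0.07 to 0.33, edgeR adjusted p = 0.583). Prkdc was at 118, 150 and 138 CPM against 139, 224, 119, 122 and 151 CPM in the same order. Standard-diet replicate 2, at 224 CPM, stood above every other library, the next being at 151 CPM. The log2 fold change of -0.16 had a 95% interval of -0.55 to 0.23 (edgeR adjusted p = 0.755). The sign of the Prkdc value turned without that library (0.0292) and with GC and length trends removed (0.00544). Lig4 had a log2 fold change of -0.15 with overlapping groups (95% interval -0.60 to 0.30).

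The Ku genes differed far more from each other than between diets. Xrcc6 was at 104, 83.6 and 108 CPM without BCAA and 106, 96.8, 102, 101 and 106 CPM on the standard diet (log2 fold change -0.06, edgeR adjusted p = 0.867). Xrcc5 was at 6.10, 8.18 and 6.93 CPM without BCAA and 8.99, 7.43, 9.45, 9.18 and 7.14 CPM on the standard diet (log2 fold change -0.25, 95% interval -0.74 to 0.23, edgeR adjusted p = 0.668). Per length of exon, Xrcc6 was 7.87 to 13.1 times as high as Xrcc5 over the 8 libraries. Exons of Xrcc5 shared no bases with another gene of the GENCODE basic annotation. Those of Xrcc6 overlapped Desi1 on the other strand over 8.50% of their length. Reads of Xrcc6 and Desi1 may not be separable if strand was not used in counting, which also limits the ratio to Xrcc5.

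The checkpoint kinases halt the cycle on damage, ATM on broken ends and ATR on single-stranded DNA, acting through CHEK2 and CHEK1, with TOPBP1 as the activator of ATR. All 5 were negative, against 47.4% of all tested genes, with a median of -0.12, none was called and all overlapped between groups. Atr was at 163, 124 and 103 CPM without BCAA, against 137, 179, 157, 165 and 173 CPM on the standard diet. BCAA-free replicate 1 lay within the standard-diet range, and the log2 fold change was -0.32 (SE 0.14, edgeR adjusted p = 0.320). Atm was at 179, 200 and 169 CPM without BCAA and 180, 240, 181, 184 and 196 CPM on the standard diet, overlapping in BCAA-free replicate 2 (log2 fold change -0.10, 95% interval -0.35 to 0.14, edgeR adjusted p = 0.741). Chek1 was at 79.7, 73.1 and 69.7 CPM without BCAA and 67.2, 91.8, 83.0, 72.0 and 94.8 CPM on the standard diet. All 3 BCAA-free values of Chek1 were inside the standard-diet range (log2 fold change -0.14, 95% interval -0.41 to 0.13, edgeR adjusted p = 0.673). Chek2 was at 65.3, 62.8 and 68.0 CPM without BCAA and 62.9, 69.6, 70.4, 80.9 and 70.9 CPM on the standard diet (log2 fold change -0.12, 95% interval -0.35 to 0.12, edgeR adjusted p = 0.697). Under GC and length correction the Atm and Chek1 values turned positive (0.0535 and 0.0330). Topbp1 had a log2 fold change of -0.11 (95% interval -0.31 to 0.10). Msh6, which recognises mismatches in MutSα, was positive at 0.10 (95% interval -0.11 to 0.31, edgeR adjusted p = 0.714).

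Levels between genes were set on CPM per kilobase of exon, since exon lengths ran from 2067 to 12647 bases. On this scale Topbp1 was highest, at 94.3 ± 8.60 without BCAA and 102 ± 1.85 on the standard diet (SD), followed by Parp1 at 74.4 ± 4.86 and 68.0 ± 3.46 and by Msh6 at 52.6 ± 6.36 and 49.1 ± 1.06. These top 3 did not come within 1 SD of each other in either group. The lowest were Lig4, at 2.36 ± 0.28 without BCAA and 2.63 ± 0.595 on the standard diet, and Xrcc5, at 2.77 ± 0.41 and 3.30 ± 0.42. Their gap was smaller than the larger SD without BCAA and slightly above it on the standard diet. Ordered by level, 30 of the 36 steps between neighbouring genes were smaller than the larger SD of the pair without BCAA, and 24 of 36 on the standard diet. Within the range, Brca1 was at 18.2 ± 1.75 without BCAA and 19.5 ± 0.83 on the standard diet, and Bard1 at 8.36 ± 0.81 and 12.4 ± 1.29, so the partner that fell was also the less abundant transcript per length.

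**Figure D4:**
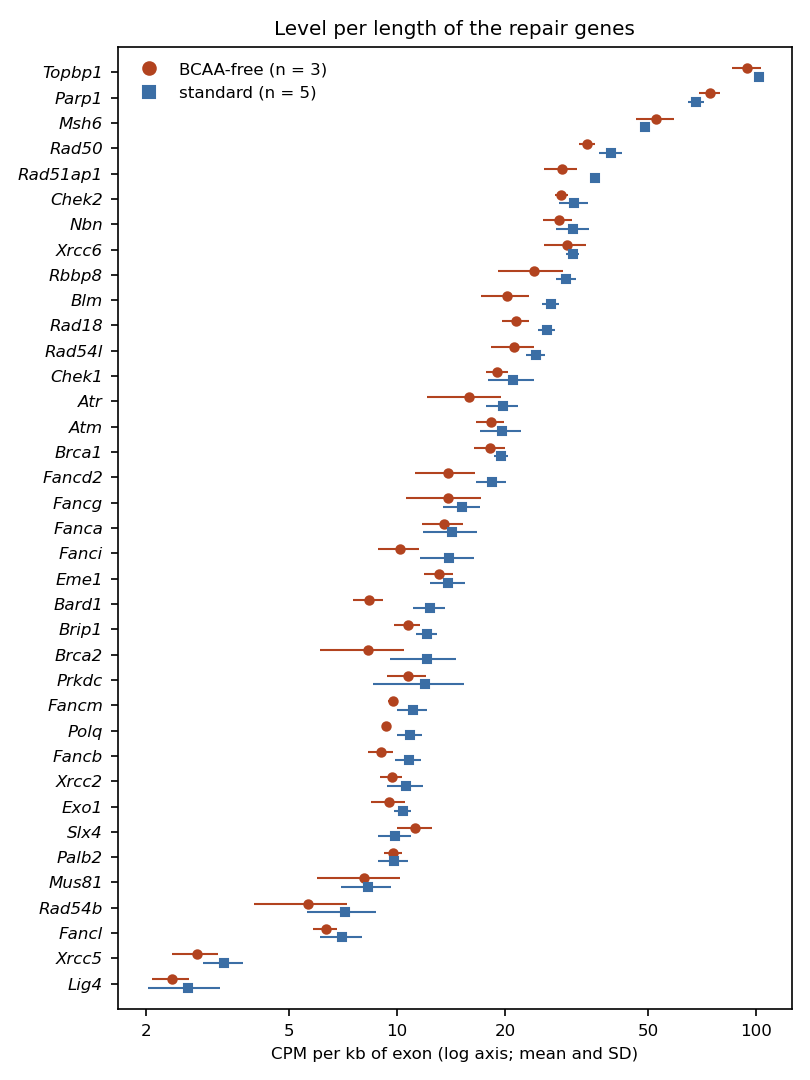
Mean and SD of CPM per kilobase of exon (log axis) for the 37 genes, ordered by the standard-diet mean, with BCAA-free points above standard-diet points. Topbp1 is highest at 94.3 and 102, and Lig4 and Xrcc5 are lowest, under 4 in both groups.

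Many of these genes start beside another gene. In GENCODE M21, 16 of the 37 had a gene on the other strand that starts within 1000 bases, and 11 of these neighbours were tested. None was called. Of the 11, 7 were negative, against 47.4% of all tested genes, and 2 had an unadjusted p under 0.05, against 13.5%. D6Wsu163e beside Rad51ap1 had a log2 fold change of -0.25 (SE 0.12, edgeR adjusted p = 0.358) and Abhd13 beside Lig4 had -0.29 (SE 0.13, edgeR adjusted p = 0.332). Mcm4, a replicative helicase subunit that starts 466 bases from Prkdc, was at 433 ± 33.4 CPM without BCAA and 446 ± 28.9 CPM on the standard diet (log2 fold change -0.04). Npat, the histone gene coactivator that starts 307 bases from Atm, had -0.19 (SE 0.12). Emc3, which starts 30 bases from Fancd2, had -0.02 (SE 0.11), beside -0.41 (SE 0.13) for Fancd2. The differences within these pairs were not tested.

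The further list of 68 repair genes extended the same pathways, with RPA, the remaining Fanconi and end joining factors, the break-site ubiquitin ligases and the 9-1-1 clamp. None of the 68 was called in edgeR, 46 (67.6%) were negative, against 47.4% of all tested genes, and the median was -0.12. At an unadjusted p under 0.05, 7 (10.3%) were lower, against 7.26% of all genes, and 1 was higher, against 6.21%. In 4 (5.88%) all BCAA-free libraries were below all standard-diet libraries, against 4.68%, and the opposite separation occurred in 1, against 4.17%. DESeq2 called 1 of the 68 lower, Rpa3, beside a background of 1.9%, and limma-voom none. Rpa3, the smallest subunit of the RPA complex that coats single-stranded DNA, was at 34.1, 27.6 and 26.4 CPM without BCAA and 35.6, 50.2, 38.9, 48.2 and 44.9 CPM on the standard diet. Its groups did not overlap (log2 fold change -0.57, SE 0.15, adjusted p = 0.0927 in edgeR and 0.0186 in DESeq2). Fance, a core complex subunit that binds FANCD2, had a positive value, at 14.8, 14.4 and 16.2 CPM without BCAA, against 11.9, 10.9, 8.97, 10.3 and 8.95 CPM on the standard diet (log2 fold change 0.57, SE 0.18, edgeR adjusted p = 0.187). The next by unadjusted p were Gen1, a Holliday junction nuclease (-0.37), Rad17, the loader of the 9-1-1 clamp (-0.35), and H2ax, the histone variant phosphorylated at breaks (-0.39), with edgeR adjusted p of 0.244, 0.254 and 0.268.

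The cell cycle lists were summed in the same libraries. The 24 G2/M genes, none of them among the 37, summed to 5156 to 5515 CPM without BCAA and 6917 to 7424 CPM on the standard diet. The groups did not overlap (exact two-sided permutation p = 0.0357, 0.0982 adjusted over 11 lists), and 6 of the 24 were called lower in edgeR beside the background of 0.539%. That p is the smallest that 3 libraries against 5 allow. The lists were chosen with earlier results of these data known, so their p-values are given as a description. The 24 S phase genes summed to 5403 to 5923 CPM without BCAA and 5730 to 6271 CPM on the standard diet, with overlap (exact permutation p = 0.179). None of them was called in edgeR, while DESeq2 called 1 lower, beside a background of 1.9%. Of the 24 S phase genes, 16 (66.7%) were negative, against 47.4% of all tested genes (median log2 fold change -0.04). At an unadjusted p under 0.05, 2 (8.33%) were lower, against 7.26%, and 1 was higher, against 6.21%. The 15 p53 targets, a readout of damage signalling, summed to 758 to 947 CPM without BCAA and 595 to 968 CPM on the standard diet, with overlap (exact permutation p = 0.214). Values were positive in 14 of the 15, against 52.6% of all tested genes (median log2 fold change 0.45). At an unadjusted p under 0.05, 5 of the p53 targets were higher, against 6.21% of all genes. None was called in edgeR, and DESeq2 called 2 higher, beside a background of 0.913%. The immediate early genes, which respond to handling, summed to 83.1 to 91.0 CPM and 58.0 to 73.8 CPM in the same order, without overlap. The part of these in the repair genes' result was not tested.

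**Figure D5:**
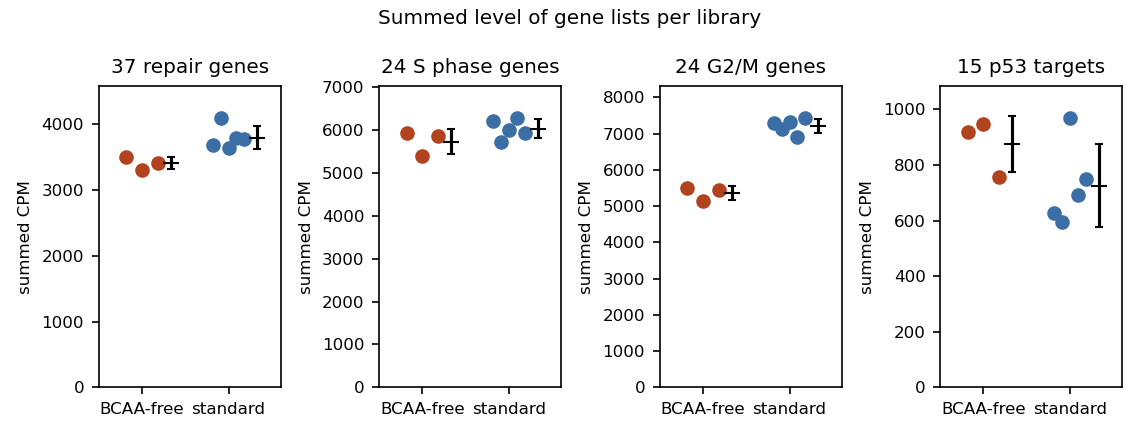
Summed CPM per library (y axes from 0) of the 37 repair genes, the 24 S phase genes, the 24 G2/M genes and the 15 p53 targets, BCAA-free at the left of each panel, with mean and SD. The repair and G2/M sums do not overlap between groups, at 3307 to 3501 against 3634 to 4087 CPM and at 5156 to 5515 against 6917 to 7424 CPM, while the S phase and p53 sums do.

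Transcript length moved most with 1 library. Across the 37 genes, the deviation of standard-diet replicate 2 from the other standard-diet libraries correlated with exon length at a Spearman rho of 0.60, and across 11947 tested genes with a length at 0.30. In the other 7 libraries rho over the 37 genes lay between -0.25 and 0.24, and over all genes with a length between -0.21 and 0.15. Deviations of the other standard-diet libraries were taken from means that include replicate 2. These correlations are across genes, which share the library, and are given as a description. Without standard-diet replicate 2, 31 of the 37 genes were negative, with a median of -0.15. In that fit 7 (18.9%) had an unadjusted p under 0.05, all of them lower, against 12.5% of all genes in either direction. With trends of GC content and exon length removed from every library, 29 of 37 were negative (median -0.13). There 6 (16.2%) had an unadjusted p under 0.05, all of them lower, against 13.7% of all genes in either direction, and Bard1 passed (edgeR adjusted p = 0.0485). In the main fit on all libraries the same shares were 29.7%, all lower, and 13.5% in either direction.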

How the data were processed

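Raw counts per gene and library were deposited by the authors in 1 table of 27179 Entrez identifiers and 8 columns, as whole numbers. Build mm10, featureCounts and Cell Ranger are named, with no role or version, per the submitters' processing notes. For the aligner, the strand setting and reads with several positions, the sources used here give nothing. Reads were pairs of 38 bases, per the labels' protocols. Each column matched the description label of 1 sample, and groups came from the titles. Symbols and coordinates are from RefSeq for GRCm38.p6, the assembly that mm10 names, and matched 25275 identifiers. Exon lengths and neighbours are from GENCODE M21, which may differ from the annotation counted on.

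Counts were tested with edgeR 4.0.16 in R 4.3.3 by the quasi-likelihood F test with robust dispersion, TMM factors and the default filter on low counts (minimum 10, total 15), with diet as the only term, over 13364 genes and 8 libraries. The p-values were adjusted by Benjamini-Hochberg over all of them, at a threshold of 0.05. The biological coefficient of variation was 23.0%. Standard errors were derived from F, and CPM were computed on TMM-scaled library sizes. DESeq2 1.42.0 and limma-voom (limma 3.58.1) were alternatives, as were other scalings, no filter, a replicate block, removal of GC and length trends (89.4% of tested genes had both values), and leaving out each library. The procedure was tested on simulated counts. Depth was 14851240 to 38966911 counts per library. No 2 libraries of a group were alike within counting error (chi-square over its degrees of freedom was 20.3 to 66.0), so none was a copy of another. This check cannot tell separate mice from repeat preparations of the same cells. Each library was counted as 1 replicate, as labelled. Sums of gene lists were tested by an exact two-sided permutation test over samples. Hbb-bt of the erythroid list had no matched row.

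Values per library are given for those of the 37 genes with an unadjusted p under 0.05 in edgeR or an adjusted one under 0.05 in any tool, and for 15 genes listed by name. Of the further repair genes, the 5 with the smallest unadjusted p are named. The members and lists were chosen with earlier results of these data known.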

Additional observations from a re-analysis of the deposited data

Results flagged for a closer look

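Standard-diet replicate 2 stood apart from the other 4 standard-diet libraries in 3 of the 37 repair genes and in 1 marker sum, by the size of its gap to the next library relative to the range of the group (above 0.710, Dixon's 95% critical value for 5 samples). It held 178 CPM of Brca2, beside 123 CPM in the next library, 106 CPM of Polq beside 92.1 CPM, and 240 CPM of Atm beside 196 CPM. The 10 leukaemia check genes summed to 3149 CPM in it, beside 2726 CPM in the next. In all, 48 sets of 5 libraries were examined, and chance flags about 1 in 20. Without this library the log2 fold changes were -0.41 for Brca2 (adjusted p = 0.267 in edgeR), -0.17 for Polq (0.480) and -0.02 for Atm (0.952).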

How the results depend on the processing

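Of the 37 genes, 28 kept the sign of their log2 fold change under all 15 alternatives. The others reversed at small values: Palb2 (0.0397 with library totals, 0.0177 in limma-voom, 0.0338 with GC and length trends removed), Mus81 (0.0118 with library totals) and, with those trends removed, Fancl (0.0103), Atm (0.0535), Chek1 (0.0330) and Prkdc (0.00544). Leaving out 1 library gave ranges that cross 0 for Palb2 (-0.0514 to 0.0387), Mus81 (-0.27 to 0.11), Fanca (-0.15 to 0.0191), Xrcc6 (-0.13 to 0.0394) and Prkdc (-0.25 to 0.0292). The count of the 37 called lower was 2 in DESeq2, 0 in limma-voom and with library totals, and between 0 and 1 without 1 library. Of the further genes, 0 were called as reported, against 1 lower in DESeq2, with no filter and with those trends removed. Over all genes 101 were called, against 237 with no filter, 376 in DESeq2 and 64 in limma-voom, and between 32 and 134 without 1 library. Same-numbered libraries did not deviate together (r between -0.30 and -0.05, beside -0.13 to 0.18 for different numbers). These values showed no pairing by number but cannot exclude a weak one. With the replicate block on 6 libraries 0 genes were called, 0 of the 37 among them (904 of all genes at an unadjusted p under 0.05), and Palb2 (0.0300) and Lig4 (0.0867) turned positive. The cause of these changes was not tested. Each of the 37 genes had at least 91 counts in every library.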
